A study of Homo sapiens with 17 samples.

Results

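The 10 genes described here are NF-kappaB target genes, genes of the NF-kappaB proteins themselves and genes of CXCL chemokines, in colon cancer cells treated with toyocamycin. They were chosen by name as a fixed list of feedback and chemokine genes. No cutoff on their measured values was used, but earlier results of these data were known. All 10 were found among the 19141 genes of the count table and all 10 passed the filter on low counts. CXCL2 and CXCL3 held at most 6 reads in any DMSO library and passed it through toyocamycin libraries. In the fit without the libraries of 10 h, CXCL1 passed it through replicate 1 of toyocamycin at 2 h (12 reads). CXCL8 passed it there through replicate 1 of DMSO at 2 h (11 reads). In order of role they are the inhibitors NFKBIA, TNFAIP3 and BIRC3, the subunit genes NFKB1, NFKB2 and RELB, and the chemokines CXCL1, CXCL2, CXCL3 and CXCL8.

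NF-kappaB is a family of dimeric transcription factors held in the cytoplasm by IkappaB proteins until a signal from a receptor of TNF, interleukin-1 or bacterial products has them degraded. The released dimers enter the nucleus and switch on, among others, the genes of their own inhibitors and of chemokines that attract neutrophils. Transcripts of several of these genes are short-lived, so their levels can follow a change in transcription within hours. In the colon epithelium the pathway takes part in the response to microbes and in inflammation.

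YB5 is a subline of SW48 colon cancer cells in which a single GFP transgene is silenced by methylation of its CMV promoter, in the vehicle-treated controls as well. They received either the vehicle DMSO or 250 nM toyocamycin, an adenosine analog whose effect on gene expression over time was the question, and polyA RNA was sequenced. The labels name 17 libraries, 8 of DMSO and 9 of toyocamycin, and each arm has 2 libraries at 2 h and 3 at 72 h, with a single one at 24 h and another at 48 h. At 10 h there were 1 DMSO library and 2 toyocamycin libraries. The study's text gives the last time as 96 h, and the labels' 72 h is used throughout. As 1 cell line was used, p-values measure the spread between these cultures only.

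Library totals on genes ran from 8735465 reads, in replicate 2 of toyocamycin at 10 h, to 22121364 reads. The labels place replicate 2 of each arm at 2 h and 10 h in a second batch, so the DMSO library of 10 h shares its batch with only 1 of the toyocamycin libraries. Mitochondrially encoded genes took 0.917% to 3.47% of the counts on DMSO and 1.46% to 6.55% on toyocamycin, and their part in the results was not tested. Of 10 colon epithelium markers, 5 stood above 1 CPM (counts relative to a library's scaled total) in every library, while CDX1 was at 0 and KRT20 at no more than 0.0496 CPM in all DMSO libraries. None of the other marker lists was at 0 throughout. The 6 leukocyte markers summed to 0.0929 to 0.591 CPM on DMSO and 0.433 to 23.0 CPM on toyocamycin, led by CD14 at up to 17 CPM. The 5 fibroblast markers summed to 0.372 to 11.6 and 0.500 to 21.1 CPM, and the 4 endothelial markers to 0 to 0.668 and 0.331 to 14.7 CPM. The part of these markers in the results was not tested.

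The promoters of these genes are known for binding sites of NF-kappaB close to the start of transcription. RefSeq promoters (GRCh38.p14), from 250 bases before to 50 after a start, were given for 9 of the 10 genes, all but RELB. They were searched on both strands for the NF-kappaB consensus and for GGAATTTCC, a site known from the CXCL8 promoter. The consensus was found in 8 of the 9 genes, against 13.3% of 27305 genes with a promoter in the table. The shorter GGAATTTCC was found in 6 of the 9, against 0.56% of genes, and in 5 of these it lay within a match of the consensus. CXCL8 held GGAATTTCC alone. The letters TATAAA were found on the strand of the gene in CXCL8 and on the opposite strand in NFKBIA, against 13.99% of genes on either strand. Matching stretches are printed below for 7 genes to show how alike the sites are, 5' to 3' on the strand of the gene, with the matches in capitals.
NFKBIA (chr14:35404801-35404850, minus strand): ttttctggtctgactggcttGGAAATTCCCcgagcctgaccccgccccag
TNFAIP3 (chr6:137867172-137867233, plus strand): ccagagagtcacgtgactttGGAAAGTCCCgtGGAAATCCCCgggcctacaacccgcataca
BIRC3 (chr11:102317265-102317378, plus strand): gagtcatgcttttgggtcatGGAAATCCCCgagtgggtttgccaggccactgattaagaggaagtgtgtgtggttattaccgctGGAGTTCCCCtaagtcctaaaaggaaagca
NFKB1 (chr4:102501290-102501339, plus strand): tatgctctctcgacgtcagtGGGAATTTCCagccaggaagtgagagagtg
CXCL1 (chr4:73869294-73869344, plus strand): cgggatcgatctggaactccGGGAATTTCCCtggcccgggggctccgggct
CXCL2 (chr4:74099243-74099293, minus strand): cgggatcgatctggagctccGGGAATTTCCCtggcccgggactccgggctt
CXCL8 (chr4:73740458-73740506, plus strand): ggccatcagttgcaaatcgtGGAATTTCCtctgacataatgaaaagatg

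In CXCL1 and CXCL2 the same 11 letters matched the consensus on both strands, starting 79 and 78 bases before the start of transcription. The match of NFKB1 began 49 bases before its start and that of CXCL8 91 bases before. TNFAIP3 and BIRC3 each held 2 matches, 67 and 55 bases before the start in TNFAIP3 and 199 and 135 bases before it in BIRC3. Consensus matches were present both in the 5 genes that were upregulated at 72 h and in the 2 that were downregulated, so the letters alone did not divide the genes by direction. A match is a description of the sequence and not evidence of binding.

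In DMSO the inhibitor and subunit genes were expressed and the chemokine genes were almost silent. Levels are compared between genes per kilobase of annotated exon (RPKM). The highest medians over the 8 DMSO libraries were those of NFKBIA at 14.7 RPKM and NFKB2 at 13.7 RPKM, followed by RELB at 7.55, NFKB1 at 4.62, TNFAIP3 at 1.04 and BIRC3 at 0.407 RPKM. The chemokines came last, with CXCL2 at 0.146, CXCL1 at 0.0521, CXCL3 at 0.0366 and CXCL8 at 0.0322 RPKM. Neighbours in this order overlapped between libraries, apart from NFKB1 at 4.19 to 5.34 RPKM and TNFAIP3 at 0.834 to 1.57 RPKM. In the toyocamycin libraries of 72 h the order was another one, led by TNFAIP3 at a median of 52.1 and NFKBIA at 46.9 RPKM, while NFKB2 stood at 0.845 RPKM.

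**Figure D1:**
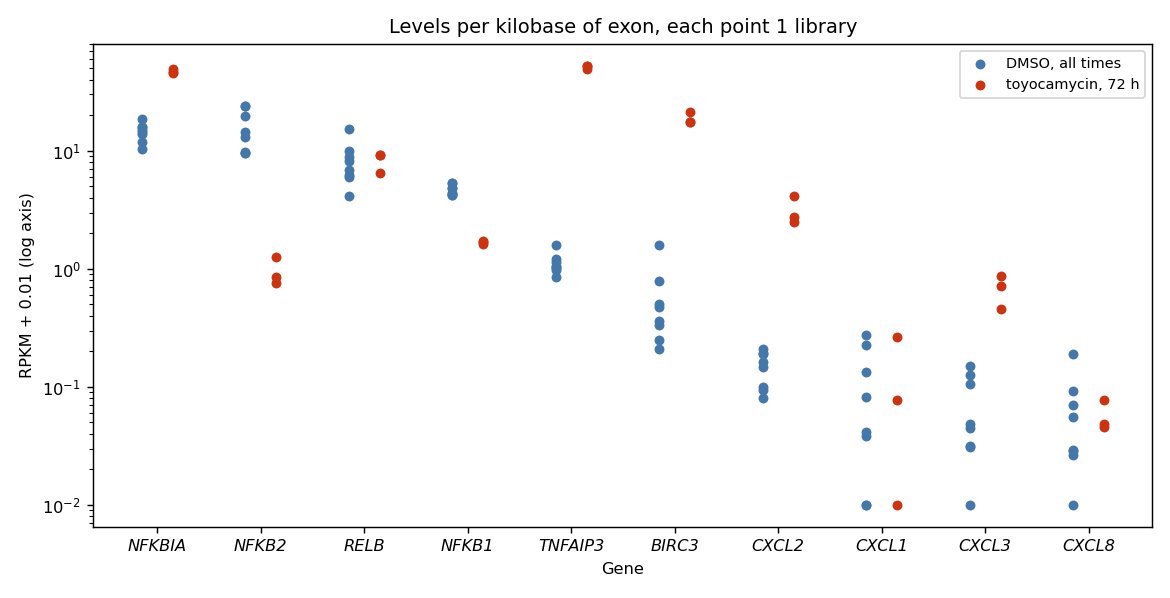
RPKM plus 0.01 on a log axis for each of the 10 genes, with 1 point per library, for all 8 DMSO libraries and the 3 toyocamycin libraries of 72 h. TNFAIP3, BIRC3 and NFKBIA lie above their DMSO points at 72 h, NFKB2 and NFKB1 lie below theirs, and RELB lies among them.

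Toyocamycin was compared with DMSO at each time in fits across all genes, with edgeR's quasi-likelihood test and a Benjamini-Hochberg adjusted p under 0.1. At 2 h, 1 of the 10 genes was downregulated, BIRC3, where 8.42% of all genes tested were. At that time 0 of the 10 were upregulated by edgeR, 0 at an unadjusted p under 0.05 and 0 by DESeq2, where 0.518% of all genes were upregulated. At 10 h, 3 of the 10 were upregulated (20.4% of all genes) and 2 downregulated (24.4%). At 72 h, 5 of the 10 were upregulated (47.0% of all genes) and 2 downregulated (41.9%). The 5 include CXCL2 and CXCL3, which passed the filter on low counts through toyocamycin libraries. With libraries scaled on the mitochondrially encoded genes in place of TMM, the counts were 0 up and 0 down at 2 h, 0 up and 2 down at 10 h, and 4 up and 3 down at 72 h. Shares of all genes under that scaling are not given. Its counts, here and below, therefore only describe how the calls depend on the scaling. All 5 genes called at 10 h were called in the same direction at 72 h, when 47.0% of all genes were upregulated and 41.9% downregulated. How often all genes kept their direction is not given here, so this agreement is no result about the 10 genes. With TMM the shares are near those of all genes, so the counts say nothing particular about the 10 genes, and the size of each change is given gene by gene.

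At 24 and 48 h there was 1 library per arm, so no test was made and genes were counted past a log2 fold change of 1. At 24 h, 5 of the 10 were past it upward (29.7% of all genes) and 3 downward (27.8%). At 48 h the counts were 6 upward (38.1%) and 2 downward (29.9%). CXCL8 at 24 h and CXCL1 at 48 h are in these counts with no more than 3 reads in either arm, which gives no usable fold. Under mitochondrial scaling the counts were 2 upward and 5 downward at 24 h and 6 upward and 4 downward at 48 h. The median over all genes then moved from 0 to -2.16 at 24 h and from 0.16 to -1.64 at 48 h.

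**Figure D2:**
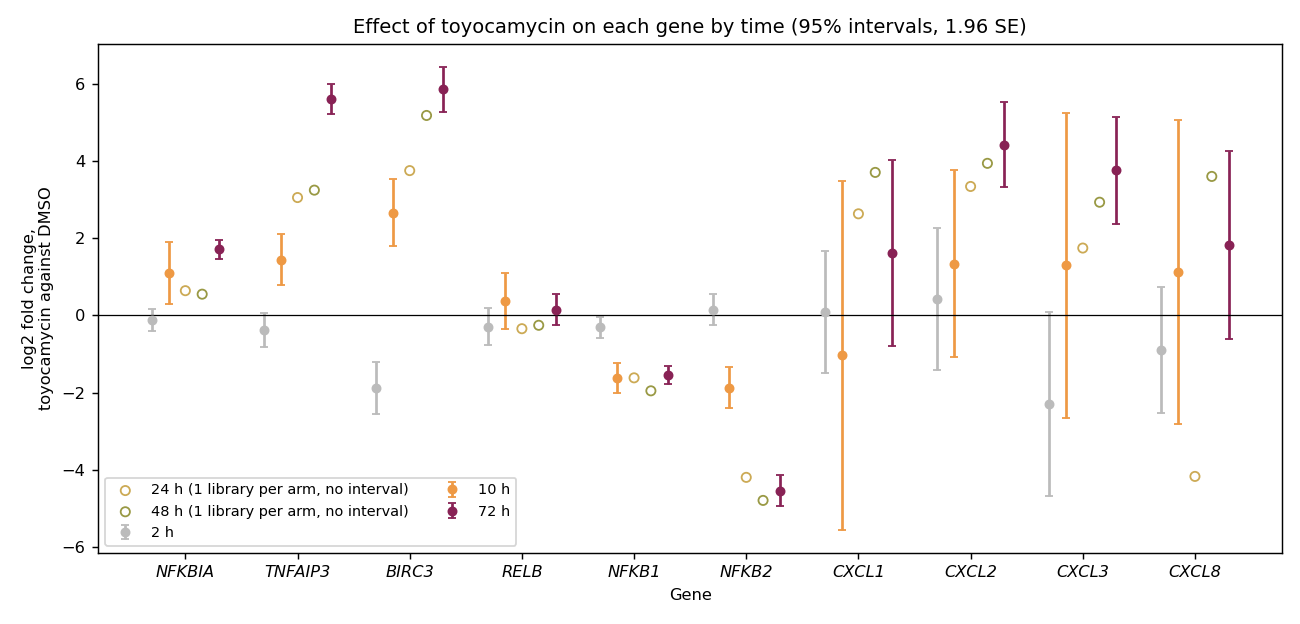
Log2 fold change of toyocamycin against DMSO for each gene, with 95% intervals at 2, 10 and 72 h (points and bars) and values without interval at 24 and 48 h (open circles, 1 library per arm). BIRC3 crosses from -1.88 at 2 h to 5.86 at 72 h, TNFAIP3 reaches 5.62, NFKB2 reaches -4.54, and the intervals of CXCL1 and CXCL8 span 0 at every time tested.

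NFKBIA encodes IkappaBalpha, the inhibitor that holds NF-kappaB in the cytoplasm and is itself a rapid target of it. Its gene (ENSG00000100906) lies at chr14:35401079-35404749 on the minus strand of GRCh38. On DMSO the 8 libraries held between 35.0 and 63.2 CPM, with a median of 49.9 CPM. On toyocamycin the libraries held 58.4 and 49.95 CPM at 2 h, 111.6 and 38.4 CPM at 10 h, 78.8 CPM at 24 h, 58.2 CPM at 48 h, and 167.3, 153.7 and 159.3 CPM at 72 h. At 24 h, with its single library, and at 72 h the toyocamycin libraries stood above all 8 DMSO libraries. The mean there was 160.1 ± 6.8 CPM (SD, n = 3) against 49.95 ± 3.16 CPM (SD, n = 3), which is 1.71 on the log2 scale with an SE of 0.12 (edgeR adjusted p = 3.27e-09). Under mitochondrial scaling this call was lost, at 0.63 (edgeR adjusted p = 0.188).

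At 2 h NFKBIA stood at a log2 fold change of -0.11 with a 95% interval of -0.41 to 0.18. At 10 h it was upregulated by 1.10 on the log2 scale (SE 0.41, edgeR adjusted p = 0.0452), and this call rested on replicate 1 of toyocamycin, which comes from the other batch than the DMSO library. Without that replicate the value was 0.13, not past the threshold, which is also the comparison within the second batch. It was lost too with library size alone, at 0.58 (edgeR adjusted p = 0.19), with mitochondrial scaling, at 0.11 (edgeR adjusted p = 0.922), and in a fit of the libraries of 2 and 10 h, at 1.11 (edgeR adjusted p = 0.144). At 24 and 48 h the values without test were 0.64 and 0.55, and their sign flipped to -0.37 and -0.06 with library size alone and to -1.63 and -1.29 with mitochondrial scaling.

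TNFAIP3 encodes A20, a ubiquitin-editing enzyme that shuts off signalling from TNF and Toll-like receptors. The gene (ENSG00000118503, chr6:137867214-137883314, plus strand) overlaps the lncRNA WAKMAR2 on the other strand, and the strand setting of the counting is not given in the sources used here, so reads of the pair cannot be told apart. Its DMSO level was steady, between 5.37 and 10.1 CPM in all 8 libraries. Toyocamycin libraries held 8.66 and 4.88 CPM at 2 h, 22.1 and 13.8 CPM at 10 h, 44.4 CPM at 24 h and 58.1 CPM at 48 h. At 72 h they held 335.6, 337.4 and 314.9 CPM. From 10 h on, every toyocamycin library was above every DMSO library.

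The fold change of TNFAIP3 at 72 h was 49.0, or 5.62 on the log2 scale with an SE of 0.20 (edgeR adjusted p = 1.73e-12, n = 3 per arm). At 10 h it was upregulated by 1.45 on the log2 scale (SE 0.34, edgeR adjusted p = 0.00344), and by 1.05 between the libraries of the second batch alone. Under mitochondrial scaling the call at 10 h was lost, at 0.37 (edgeR adjusted p = 0.719). At 24 and 48 h the values were 3.06 and 3.25 with TMM and 0.79 and 1.40 with mitochondrial scaling. At 2 h the value was -0.39 with a 95% interval of -0.82 to 0.05, and the replicate pairs differed in direction, at 0.15 in the first batch and -1.04 in the second. Without replicate 1 of toyocamycin at 2 h it was called as downregulated at -0.87 (edgeR adjusted p = 0.0409).

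BIRC3 encodes cIAP2, a ubiquitin ligase of the TNF receptor complex that protects cells from apoptosis and restrains the non-canonical pathway. The gene (ENSG00000023445, chr11:102317484-102339403, plus strand) overlaps an annotated lncRNA on the other strand. It was the only one of the 10 that was downregulated at 2 h and upregulated later. DMSO libraries held 5.81 and 11.8 CPM at 2 h and toyocamycin libraries 2.11 and 2.65 CPM, so the arms did not overlap. The log2 fold change was -1.88 with an SE of 0.35 (edgeR adjusted p = 0.00296), and within the batches it was -1.41 and -2.11. Leaving out single libraries gave -2.32 to -1.29. Under mitochondrial scaling the value was -1.83 and no longer passed (edgeR adjusted p = 0.136).

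At 10 h the single DMSO library held 3.67 CPM of BIRC3 and the toyocamycin libraries 25.6 and 20.9 CPM. This was a rise of 2.66 on the log2 scale (SE 0.44, edgeR adjusted p = 0.000259), and of 2.47 within the second batch. Under mitochondrial scaling it was 1.55 and just missed the threshold (edgeR adjusted p = 0.1). The level was 35.0 CPM at 24 h against 2.61 CPM on DMSO, and 63.9 CPM at 48 h against 1.78 CPM. At 72 h the toyocamycin libraries held 160.9, 132.2 and 131.6 CPM and the DMSO libraries 1.49, 2.42 and 3.48 CPM. The fold change of 58.1, or 5.86 on the log2 scale with an SE of 0.29 (edgeR adjusted p = 4.91e-11), was the largest of the 10 genes at that time.

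**Figure D3:**
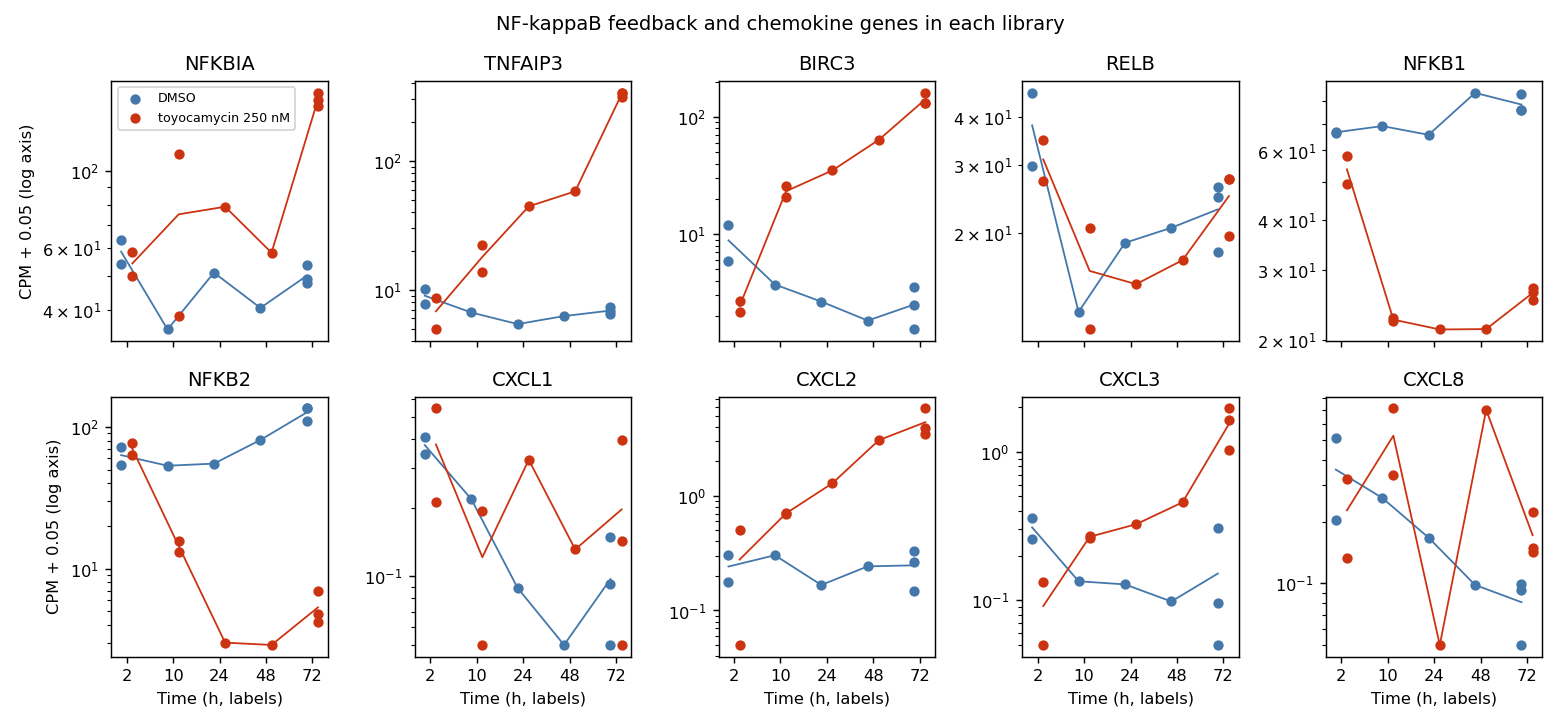
CPM plus 0.05 on a log axis (each gene with its own range) for every library, by the labels' time in hours, for DMSO and 250 nM toyocamycin, with lines through the mean of each time. BIRC3 and TNFAIP3 climb on toyocamycin to 141.6 and 329.3 CPM at 72 h, while NFKB1 and NFKB2 drop by 10 h, and the chemokine panels rest on few reads.

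NFKB1 encodes p105 and its processed product p50, a subunit of the canonical NF-kappaB dimer. The gene (ENSG00000109320) lies at chr4:102501330-102617302 on the plus strand. DMSO libraries held between 65.7 and 83.8 CPM at all times. On toyocamycin they held 58.0 and 49.5 CPM at 2 h and then 22.2 and 22.7 CPM at 10 h, 21.2 CPM at 24 h, 21.2 CPM at 48 h and 26.3, 25.2 and 27.0 CPM at 72 h. From 10 h on the level lay between 21.2 and 27.0 CPM, below every DMSO library.

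NFKB1 was downregulated at 10 h by a log2 fold change of -1.62 (SE 0.19, edgeR adjusted p = 1.4e-05) and at 72 h by -1.55 (SE 0.12, edgeR adjusted p = 9.37e-09). At 24 and 48 h the values were -1.62 and -1.95, or -3.89 and -3.80 with mitochondrial scaling. At 2 h the value of -0.31 (SE 0.14) had an edgeR adjusted p of 0.323 and did not pass, although both toyocamycin libraries were below both DMSO libraries. With the replicate number, which marks the batch at 2 h, as a block, it passed at -0.32 (edgeR adjusted p = 0.0281), and 3 of the 10 genes were then downregulated in place of 1. The other addition was RELB at -0.29 (edgeR adjusted p = 0.0932).

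NFKB2 encodes p100, which acts as an inhibitor until it is processed to p52, the subunit of the non-canonical pathway. The gene (ENSG00000077150) lies at chr10:102394110-102402524 on the plus strand. DMSO libraries of 2 h held 72.4 and 53.8 CPM and toyocamycin libraries 76.4 and 63.7 CPM, with overlap. From 10 h the toyocamycin libraries held 15.6 and 13.2 CPM, then 2.96 CPM at 24 h, 2.85 CPM at 48 h and 4.72, 4.17 and 6.95 CPM at 72 h. DMSO held 53.1 CPM at 10 h, 55.0 CPM at 24 h, 80.7 CPM at 48 h and 134.7, 134.9 and 109.3 CPM at 72 h, so the arms moved apart from both sides.

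The log2 fold change of NFKB2 was 0.15 at 2 h with a 95% interval of -0.25 to 0.55, and -1.88 at 10 h (SE 0.27, edgeR adjusted p = 7.42e-05). At 72 h it was -4.54 (SE 0.21, edgeR adjusted p = 1.69e-11), which is 23.3-fold lower. At 24 and 48 h the values were -4.20 and -4.80, or -6.47 and -6.64 with mitochondrial scaling. The fall of NFKB2 was larger than that of NFKB1 in these values from 24 h on, a difference between the genes that was not tested.

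RELB encodes the partner of p52 and is a target of the canonical pathway. The gene (ENSG00000104856) lies at chr19:45001461-45038192 on the plus strand. Its toyocamycin libraries held 34.7 and 27.2 CPM at 2 h, 20.6 and 11.2 CPM at 10 h, 14.7 CPM at 24 h, 16.9 CPM at 48 h, and 19.6, 27.5 and 27.5 CPM at 72 h. The DMSO libraries held 46.1 and 29.8 CPM at 2 h, 12.4 CPM at 10 h, 18.8 CPM at 24 h, 20.6 CPM at 48 h and 24.7, 26.3 and 17.8 CPM at 72 h. The arms overlapped at 2, 10 and 72 h.

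At 72 h RELB stood at a log2 fold change of 0.15 with a 95% interval of -0.26 to 0.56 (edgeR adjusted p = 0.502). Its sign and its call depended on the scaling of the libraries. With DESeq2 size factors RELB was called as upregulated at 0.47 (edgeR adjusted p = 0.048), by library size alone as downregulated at -0.45 (edgeR adjusted p = 0.051), and by the mitochondrially encoded genes as downregulated at -0.98 (edgeR adjusted p = 0.0348). The median of all genes moved with the scaling too, at 72 h from 0.18 to 0.50, -0.42 and -0.89 in the same order. Relative to that median RELB lay between -0.08 and -0.03 under all 4 scalings tried. The same measure was 5.44 for TNFAIP3 under each, 5.68 to 5.78 for BIRC3, 1.52 to 1.54 for NFKBIA, -1.72 for NFKB1 and -4.73 to -4.71 for NFKB2. A change of scaling shifts a gene and the median about alike. That these values hardly moved is therefore built into the measure and is no test of the results. In bulk RNA, fewer cells with a transcript and less of it per cell cannot be told apart.

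The chemokines CXCL1, CXCL2 and CXCL3 attract neutrophils through the receptor CXCR2, and CXCL8, or interleukin-8, through CXCR1 and CXCR2. All 4 genes lie on chromosome 4, CXCL8 (ENSG00000169429) at chr4:73740519-73743716 and CXCL1 (ENSG00000163739) at chr4:73869393-73871308 on the plus strand. CXCL3 (ENSG00000163734) at chr4:74036589-74038807 and CXCL2 (ENSG00000081041) at chr4:74097040-74099196 lie on the minus strand. Of the 100-base words in their annotated transcripts, 5.34% of those of CXCL2 and 3.27% of those of CXCL3 also occur in another of these genes, so some reads of CXCL2 and CXCL3 may be shared or lost in counting. None was highly expressed. The highest count in any library was 62 for CXCL2, 22 for CXCL3, 12 for CXCL1 and 11 for CXCL8.

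CXCL2 rose on toyocamycin at 72 h. The DMSO libraries held 2, 6 and 5 reads and the toyocamycin libraries 35, 62 and 44 reads, or 0.197 ± 0.091 CPM (SD, n = 3) against 4.34 ± 1.24 CPM (SD, n = 3). The log2 fold change was 4.43 (SE 0.56, edgeR adjusted p = 2.16e-06). At 24 h the counts were 18 on toyocamycin and 3 on DMSO, and at 48 h 37 and 4. The corresponding ratios were 10.6 and 15.6, with 95% exact intervals of 3.09 to 56.2 and 5.62 to 60.4 that cover counting error only and compare these libraries, not the conditions. At 10 h the toyocamycin libraries held 9 and 6 reads and the DMSO library 6, and no difference was detectable at this depth (log2 fold change 1.34, 95% interval -1.08 to 3.76).

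CXCL3 rose as well at 72 h, from 0, 1 and 6 reads on DMSO to 10, 17 and 22 reads on toyocamycin. The log2 fold change was 3.76 (SE 0.71, edgeR adjusted p = 0.000134), and leaving out single libraries gave 3.25 to 5.64. At 48 h there were 5 reads against 1, with a ratio of 8.45 and a 95% exact interval of 0.946 to 399.8. At 2 h the toyocamycin libraries held 2 and 0 reads and the DMSO libraries 5 and 6 reads. With the toyocamycin arm set to the limit of 3 counts per library, the level was 1.60-fold lower, which leaves out the error of the DMSO arm. The ratio was 0.185 with a 95% exact interval of 0.0199 to 0.845 that covers counting error only. By edgeR the 95% interval of the log2 fold change was -4.68 to 0.08, and the test did not pass (adjusted p = 0.416).

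CXCL1 and CXCL8 did not pass the test at 2, 10 or 72 h. At 72 h CXCL1 had 2, 0 and 1 reads on DMSO and 0, 1 and 4 reads on toyocamycin, and CXCL8 had 1, 0 and 1 reads on DMSO and 1, 1 and 2 reads on toyocamycin. The 95% intervals of the log2 fold change were -0.79 to 4.04 for CXCL1 and -0.62 to 4.26 for CXCL8, so a change of the size seen for CXCL3 lies within them. The largest count of CXCL8 on toyocamycin was 8 reads at 48 h, against 1 read on DMSO. That ratio was 13.5 with a 95% exact interval of 1.81 to 600.1, which covers counting error only and compares these libraries, not the conditions. At 2, 10 and 72 h a difference of these genes between the arms was not detectable at this depth.

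Whether the effect of toyocamycin differed between the last and the first time was tested as an interaction in the same fit, which shares its libraries with the comparisons at both times. Of the 10 genes, 5 had a higher effect at 72 h (38.0% of all genes tested) and 2 a lower effect (38.1%). BIRC3 changed most, by 7.75 on the log2 scale (SE 0.46, edgeR adjusted p = 9.68e-10), as it went from downregulated to upregulated. The difference was 6.0 for TNFAIP3 (SE 0.30, edgeR adjusted p = 1.98e-10) and 1.83 for NFKBIA (SE 0.19, edgeR adjusted p = 5.45e-07). Under mitochondrial scaling the difference of NFKBIA was 0.91 and did not pass (edgeR adjusted p = 0.273). NFKB2 went the other way at -4.69 (SE 0.29, edgeR adjusted p = 1.7e-09). RELB, at 0.44 with a 95% interval of -0.19 to 1.07, did not pass with TMM but did with DESeq2 size factors, at 0.73 (edgeR adjusted p = 0.0547).

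Several of these genes also moved with time in culture without drug. Between 2 and 72 h on DMSO, 1 of the 10 was upregulated (10.2% of all genes tested) and 4 were downregulated (11.4%), or 1 and 0 under mitochondrial scaling. NFKB2 rose from 63.1 ± 13.1 CPM (SD, n = 2) to 126.3 ± 14.7 CPM (SD, n = 3), by 0.9995 on the log2 scale (SE 0.19, edgeR adjusted p = 0.00253). BIRC3 fell from 8.81 ± 4.25 CPM (SD, n = 2) to 2.46 ± 0.996 CPM (SD, n = 3), at -1.82 on the log2 scale (SE 0.30, edgeR adjusted p = 0.000999). Without single libraries the value of BIRC3 lay between -2.25 and -1.22. RELB fell from 38.0 ± 11.5 CPM (SD, n = 2) to 22.9 ± 4.5 CPM (SD, n = 3), at -0.73 (SE 0.22, edgeR adjusted p = 0.0391), but did not pass without replicate 1 of DMSO at 2 h or replicate 3 of DMSO at 72 h, at -0.38 and -0.57. CXCL8 and CXCL1, also among the 4, fell from a handful of reads to at most 2 per library. CXCL8 passed the filter on low counts through replicate 1 of DMSO at 2 h, with 11 reads. That library is in the arm where CXCL8 is high, so its call is no independent result. The 95% intervals of their log2 fold changes were -5.04 to -1.19 and -4.64 to -0.65, and both calls were lost without single libraries. As one of the DMSO libraries of 2 h is in the second batch and all of 72 h are in the first, batch is partly mixed with time here.

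Over the 17 libraries, the pattern of log2 CPM was most alike between TNFAIP3 and CXCL2 at a Pearson r of 0.951 among these 10 genes, followed by TNFAIP3 and BIRC3 at 0.942 and by NFKB1 and NFKB2 at 0.932. NFKB2 and BIRC3 ran opposite, at -0.925. Among all other genes with a mean log2 CPM of at least 1, the pattern nearest to TNFAIP3 was that of PLPP3 (r = 0.989), and those nearest to NFKB1, NFKB2 and BIRC3 were GPKOW (0.990), AIFM2 (0.988) and ZNF431 (0.981). NFKBIA was nearest to SERF2 (0.923), CXCL2 to MYO1G (0.966) and CXCL3 to ZNF555 (0.935). The likeness was lower for RELB, at 0.779 with ADRA2C, for CXCL1, at 0.707 with ZC3HAV1, and for CXCL8, at 0.703 with COL7A1. These correlations describe 17 points that share treatment, time and scaling.

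Genes of the other subunits and IkappaB proteins were called in both directions. Of 8 such genes tested, 4 were downregulated at 2 h (8.42% of all genes tested). At 10 h, 2 were upregulated (20.4% of all genes) and 2 downregulated (24.4%), and at 72 h, 4 were upregulated (47.0%) and 4 downregulated (41.9%). Over all pathway lists described from here on, the 10 genes aside, mitochondrial scaling left 0 up and 2 down at 2 h in place of 2 and 15, 4 up and 43 down at 10 h in place of 24 and 27, and 32 up and 51 down at 72 h in place of 51 and 45. REL, the gene of c-Rel, went from -1.08 at 2 h (edgeR adjusted p = 0.00721) to 2.19 at 72 h (edgeR adjusted p = 2.49e-08). RELA, the gene of p65, was downregulated at 10 h by -1.37 and at 72 h by -0.86 on the log2 scale (edgeR adjusted p = 1.03e-05). NFKBIZ, an atypical nuclear IkappaB, rose from 0.752 ± 0.211 CPM on DMSO to 37.0 ± 6.2 CPM on toyocamycin at 72 h (SD, n = 3 per arm), by 5.64 on the log2 scale (edgeR adjusted p = 1.34e-11). NFKBID fell at the same time by -4.40 (edgeR adjusted p = 1.87e-05) and BCL3 by -1.03 (edgeR adjusted p = 0.00109). NKRF, an NF-kappaB repressing factor, rose from 19.1 ± 2.3 to 236.2 ± 29.9 CPM (SD, n = 3 per arm), by 3.66 on the log2 scale (edgeR adjusted p = 6.13e-12).

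**Figure D4:**
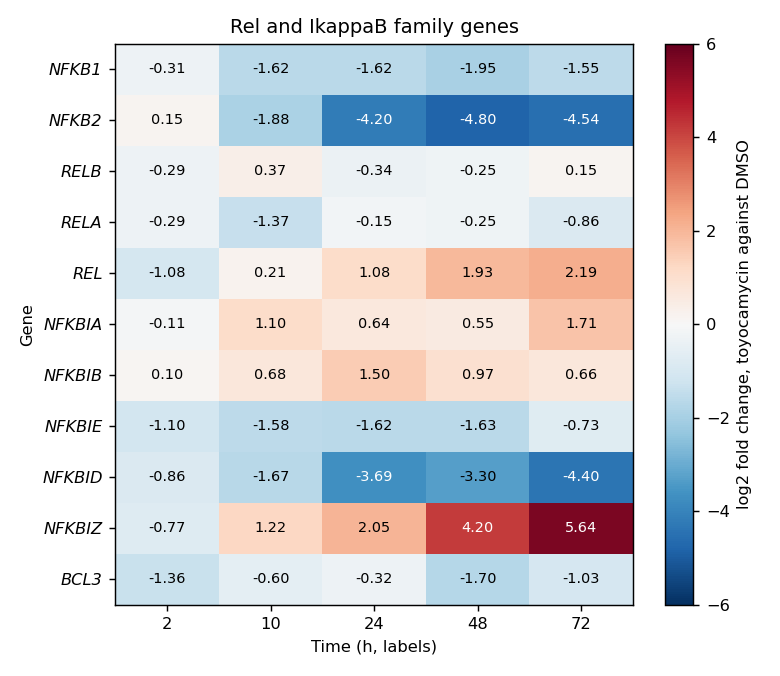
Log2 fold change of toyocamycin against DMSO, written in each cell and coloured from blue (lower) to red (higher), for Rel and IkappaB family genes (rows) by the labels' time in hours (columns), with 1 library per arm at 24 and 48 h. NFKB2 and NFKBID reach -4.54 and -4.40 at 72 h, and NFKBIZ, REL and NFKBIA reach 5.64, 2.19 and 1.71.

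Upstream of NF-kappaB, 9 of 18 ligand and receptor genes tested were upregulated at 72 h (47.0% of all genes) and 8 downregulated (41.9%), with a median log2 fold change of 0.33 against 0.18 over all genes. With genes at no more than 3 reads in an arm set to the bound that those reads allow, the median of the list was again 0.33. LTA, TNF, LTB and TLR1 had no more than 3 reads in any DMSO library of 72 h, so they could only be called upward. TLR5 was as low on toyocamycin and could only be called downward. The counts of called genes therefore say little about this list. The ligands LTA and TNF had 0 reads in every DMSO library of 72 h and reached 14.8 ± 2.1 and 3.80 ± 0.69 CPM on toyocamycin (SD, n = 3), at least 99.7-fold and 25.6-fold higher. The receptors TNFRSF1B and LTBR fell, by log2 fold changes of -5.41 (edgeR adjusted p = 1.43e-12) and -3.32 (edgeR adjusted p = 8.74e-12). Among adaptors, ubiquitin ligases and kinases, 18 of 26 tested were downregulated at 72 h (41.9% of all genes) and 5 upregulated (47.0%), with a median of -0.9985 against 0.18 over all genes. IKBKE, an IkappaB kinase relative, fell from 5.96 ± 0.46 CPM to 0 reads in every library, at least 20.2-fold lower. IRAK1 fell from 372.5 ± 58.2 to 51.1 ± 9.8 CPM (SD, n = 3 per arm), whereas MAP3K14, the kinase NIK of the non-canonical pathway, rose from 17.5 ± 2.1 to 49.2 ± 3.4 CPM.

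At 2 h more genes of these lists were called lower than higher, as over all genes, where 8.42% were downregulated and 0.518% upregulated. In the adaptor list 5 of 26 were downregulated, among them TRAF6 at -1.33 (edgeR adjusted p = 0.000814) and RIPK1 at -1.14 (edgeR adjusted p = 0.000334), with a list median of -0.17 against 0.02 over all genes. OTUD7B, a deubiquitinase that restrains the non-canonical pathway, fell from 59.0 ± 3.7 to 20.7 ± 1.1 CPM (SD, n = 2 per arm), by -1.51 on the log2 scale (edgeR adjusted p = 1.75e-05), and was higher at 72 h at 1.98 (edgeR adjusted p = 2.95e-10). Of 23 other NF-kappaB targets, 4 were downregulated and 2 upregulated. PLK2 fell by -2.15 (edgeR adjusted p = 1.03e-05) and IRF1 by -2.02 (edgeR adjusted p = 8.24e-05), while the immediate early gene IER3 rose by 1.09 (edgeR adjusted p = 0.0472) and IL32 by 0.67 (edgeR adjusted p = 0.0814). The count over all these lists at 2 h was 15 down and 2 up. It was 14 and 2 with DESeq2 size factors, 19 and 1 with library size alone and 2 and 0 with mitochondrial scaling. With the replicate block it was 32 and 5, and in a fit of all 17 libraries 13 and 0. Most of the calls at 2 h were thus lost under mitochondrial scaling, but not under DESeq2 size factors or library size alone.

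Of other NF-kappaB targets, 11 of 25 were upregulated (20.4% of all genes) and 2 downregulated (24.4%) at 10 h, where mitochondrial scaling left 4 upregulated genes in all lists together. At 72 h, 14 of 23 were upregulated (47.0%) and 7 downregulated (41.9%), with a median of 1.15 against 0.18 over all genes. The upregulated ones include IL6 and SAA2, which had no more than 3 reads in any DMSO library of 72 h and could only be called upward. C3 was as low on toyocamycin and was not called. GADD45B, a stress-response gene, rose at 72 h from 67.0 ± 7.4 to 13120 ± 724 CPM (SD, n = 3 per arm), by 7.64 on the log2 scale (edgeR adjusted p = 1.32e-12). At 10 h it reached 442.7 ± 337.9 CPM (SD, n = 2) against 57.5 CPM, and IER3 reached 4104 ± 4428 CPM (SD, n = 2) against 118.1 CPM, so the toyocamycin libraries of the 2 batches lay far apart. IL6 rose from at most 1 read per DMSO library to 1.42 ± 0.19 CPM at 72 h (SD, n = 3), at least 9.58-fold. PLAU fell from 21.2 ± 4.7 to 0.347 ± 0.226 CPM (SD, n = 3 per arm), and TNFAIP2 from 26.8 ± 2.5 to 3.04 ± 0.65 CPM. The other feedback inhibitors were divided at 72 h, with 5 of 13 upregulated (47.0% of all genes) and 6 downregulated (41.9%), and SPATA2 at 3.43 (edgeR adjusted p = 1.22e-10) and TNIP2 at -3.56 (edgeR adjusted p = 1.18e-11) among them.

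**Figure D5:**
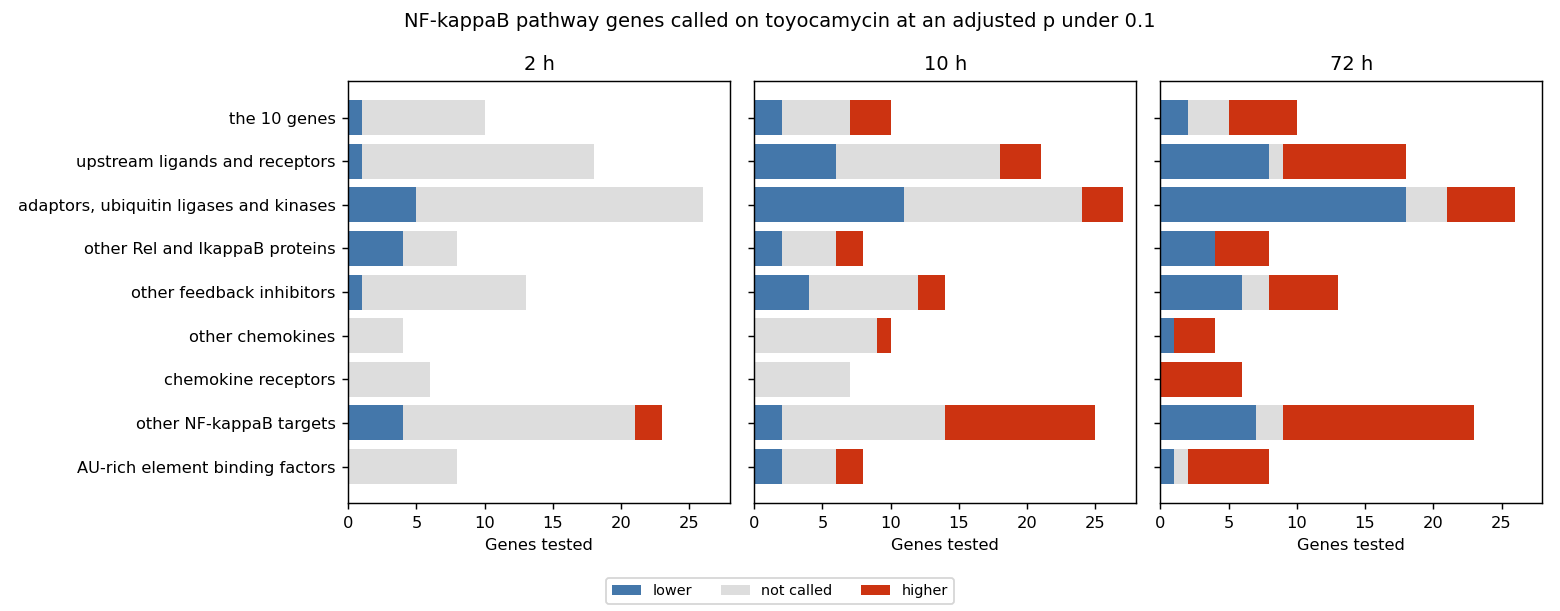
Number of genes tested in each list of NF-kappaB pathway genes, split into lower (blue), not called (grey) and higher (red) on toyocamycin at an edgeR adjusted p under 0.1, at 2, 10 and 72 h. At 2 h most bars are grey, and at 72 h the adaptor list has 18 of 26 genes lower (41.9% of all genes) while the other NF-kappaB targets have 14 of 23 higher (47.0% of all genes).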

How the data were processed

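PolyA RNA of YB5 cells was sequenced in 17 libraries, grouped by the labels' treatment, time, replicate number and batch. The authors aligned reads to GRCh38 with STAR 2.7.5a (submitters' processing notes) and deposited raw counts per gene, whole numbers without normalization; the strand setting and the handling of multimapped reads are not given in the sources used here. A table of the authors' own edgeR comparisons (fold changes and p-values) was not used. Also left out was 1 column of counts that matches no sample, although its name reads as replicate 1 of DMSO at 10 h. Of 19141 genes, 19080 were matched to a symbol.

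Counts were filtered with filterByExpr, scaled with TMM and tested with the quasi-likelihood test of edgeR 4.0.16 (legacy form) in R 4.3.3, with Benjamini-Hochberg adjustment over all genes and a threshold of 0.1. A fit of 14 libraries without those of 10 h (14491 genes) gave the results at 2, 24, 48 and 72 h, and a fit of all 17 libraries (16521 genes) gave those at 10 h, where the lone DMSO library is assumed to vary like the other groups. CPM values are TMM-scaled over the 17 libraries. RPKM divides them by the annotated exon length. Totals ran from 8735465 to 22121364 counts, and intervals and floors (3 counts) allow for counting error alone, because reads were not collapsed to molecules. A fold given as at least some value, set by a floor, takes the mean of the other arm as it stands, without its error. Scaling makes each fold change relative to the typical gene of a library.

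The replicate number marks the batch at 2 h, and deviations of libraries with the same number correlated there (r = 0.307), so the fit with that number as a block is given beside the results at 2 h. The named pathway genes were up to 2 per list and direction with the largest change among called genes without overlap between arms and with a mean CPM of at least 1, to which REL, RELA and further values of genes named at another time were added after their values had been seen. The 10 genes, the lists and the tests were chosen with earlier results of these data known. The scripts were tested on simulated data. Alternatives were DESeq2 1.42.0, its size factors, library size alone, scaling on mitochondrially encoded genes, no filter, edgeR 4's test, an adjusted p under 0.05, a batch term, other sets of libraries, the block, and leaving out each library.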

Additional observations from a re-analysis of the deposited data

Results flagged for a closer look

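For 7 of the 10 genes the effect of toyocamycin at 72 h differed from that at 2 h by the test of the difference itself in edgeR's fit of 14 libraries. It was higher for 5 (38.0% of all genes tested) and lower for 2 (38.1%), so the count says nothing particular about the 10 genes. On the log2 scale, the effect at 72 h minus that at 2 h was 1.83 for NFKBIA, 6.0 for TNFAIP3, 7.75 for BIRC3, 4.01 for CXCL2 and 6.06 for CXCL3, and it was -1.24 for NFKB1 and -4.69 for NFKB2. Under mitochondrial scaling the difference of NFKBIA was 0.91 and no longer passed (edgeR adjusted p = 0.273). The value of CXCL3 includes a toyocamycin arm at 2 h with no more than 3 reads per library, so its size depends on the prior of the fit. That of CXCL2 rests on 11 and 0 reads at 2 h and lay between 3.19 and 9.21 when single libraries were left out. The effects at both times come from separate control libraries of the same time, and 1 library of each arm at 2 h belongs to the second batch.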

How the results depend on the processing

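At 72 h the 10 genes gave 4 to 6 upregulated and 2 to 3 downregulated genes under every alternative run. Shares of all genes under the alternatives are not given, so the counts in this section only describe how the calls depend on the processing. Of 799 values of single genes under an alternative, 29 changed sign. With the sign kept, 703 stayed on their side of the threshold or, without a test, within their counting error, 28 lost the threshold, 14 gained it and 25 without a test moved further. Scaling on mitochondrially encoded genes had the widest effect. It turned NFKBIA at 24 and 48 h to -1.63 and -1.29, CXCL3 at 24 h to -0.41 and RELB at 72 h to -0.98 (edgeR adjusted p = 0.0348). RELB also turned to -0.45 under library size alone (edgeR adjusted p = 0.051) and was upregulated at 0.47 with DESeq2 size factors (edgeR adjusted p = 0.048). NFKBIA at 72 h dropped below the threshold at 0.63 (edgeR adjusted p = 0.188) and BIRC3 at 2 h at -1.83 (edgeR adjusted p = 0.136).

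The other changes of sign were in values that passed no test. Under mitochondrial scaling NFKB2 at 2 h was -0.055, CXCL8 and RELB at 10 h -0.11 and -0.69, the difference of RELB between 72 and 2 h -0.45, and NFKBIA and TNFAIP3 between the DMSO times 0.41 and 0.37. Library size alone gave -0.37 and -0.06 for NFKBIA at 24 and 48 h, -0.13 for RELB at 10 h, -0.093 for its difference between 72 and 2 h and -0.048 for CXCL2 between the DMSO times. A batch term gave -0.17 for CXCL1 at 2 h and -0.22 for CXCL2 between the DMSO times. Without single libraries, values at 2 h ran from -0.23 to 0.0062 for NFKBIA, -4.78 to 1.26 for CXCL2, -0.57 to 0.055 for RELB, -0.046 to 0.38 for NFKB2 and -0.063 to 0.60 for CXCL1. The value of -4.78 was that without replicate 1 of toyocamycin. Likewise RELB ran from -0.15 to 0.73 at 10 h and -0.0047 to 0.30 at 72 h, the difference of CXCL1 between 72 and 2 h from -0.0077 to 2.41, and CXCL2 between the DMSO times from -0.36 to 0.63.

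Under mitochondrial scaling, 0 of the 10 genes were downregulated at 2 h and 0 upregulated at 10 h. At 24 h, 2 were past the fold upward and 5 downward, and at 48 h 4 were downward. Between the DMSO times 0 were downregulated. In the pathway lists together it left 0 up and 2 down at 2 h, 4 up and 43 down at 10 h, 12 up and 72 down at 24 h, 25 up and 58 down at 48 h, 32 up at 72 h, 25 up in the difference between 72 and 2 h, and 12 up and 2 down between the DMSO times. Library size alone gave 1 up at 2 h, 46 down at 10 h and 22 up at 24 h. At 2 h the lists had 1 up at an adjusted p under 0.05, 1 with a batch term and 0 in all 17 libraries. A batch term gave 40 up at 10 h.

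With the replicate block at 2 h, 3 of the 10 genes and 32 list genes were downregulated and 5 list genes upregulated. At 72 h, where numbers mark no shared batch and same-numbered libraries deviated together at r = -0.11, 0.04 and -0.09, the block left 5 of the 10 genes up and 2 down, and 46 list genes up and 42 down.

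Between the DMSO times, DESeq2, which gave CXCL1, CXCL3 and CXCL8 no adjusted p, and a batch term each left 2 of the 10 genes downregulated and the fit of all 17 libraries 1. List counts there were 10 down by DESeq2, 7 down at an adjusted p under 0.05, 14 up with a batch term, and 14 up and 7 down in all 17 libraries. Without single libraries, 1 to 2 of the 10 genes were downregulated at 2 h and 1 to 3 between the DMSO times. The lists then had 0 to 1 up at 2 h, 28 to 39 up at 10 h, and 13 to 23 up and 7 to 13 down between the DMSO times. Depth limits CXCL1 and CXCL8 most, with at most 12 and 11 reads in a library. The cause of these shifts was not tested.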

Other observations

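AU-rich elements mark many short-lived cytokine transcripts and are bound by several proteins. Of 8 genes of such proteins tested with TMM scaling, 6 were upregulated (47.0% of all genes) and 1 downregulated (41.9%) at 72 h, with a median log2 fold change of 0.69 against 0.18 over all genes. The decay factors ZFP36L1 and ZFP36L2 rose from 303.0 ± 26.6 to 3540 ± 531 CPM and from 501.0 ± 77.1 to 3663 ± 790 CPM (SD, n = 3 per arm), by 3.58 and 2.90 on the log2 scale (edgeR adjusted p = 2.95e-11 and 1.04e-08). KHSRP fell from 599.3 ± 67.0 to 179.4 ± 25.2 CPM, by -1.71 on the log2 scale (edgeR adjusted p = 5.39e-08).

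Of 11 chemokine receptor genes listed, 6 passed the filter on low counts. At 72 h 3 of these had no more than 3 reads in any DMSO library and passed through the toyocamycin libraries, so a count of the called ones says nothing about the list. CCR7 rose from 0.152 ± 0.061 to 10.7 ± 1.4 CPM (SD, n = 3 per arm), and CXCR1, a receptor of CXCL8, reached 2.95 ± 0.17 CPM, at least 19.9-fold above DMSO. Among other chemokines, CXCL16 was upregulated at 10 h by 1.63 (edgeR adjusted p = 0.00336) and downregulated at 72 h by -2.43 on the log2 scale (edgeR adjusted p = 1.59e-09), from 279.8 ± 31.0 to 50.6 ± 7.2 CPM. CCL28 rose from 0 reads on DMSO to 1.41 ± 0.29 CPM at 72 h. The leukocyte marker CD14 reached 17 CPM on toyocamycin, and the part of leukocyte markers in these levels was not tested.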
